A study of Homo sapiens with 6 samples.

Results

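Expression of 9 laminin subunit genes was compared between human breast cancer cells with and without a hairpin RNA (shRNA) aimed at the transcription factor brachyury. Both groups were of the established line MDA-MB-231, the knockdown group labelled shBry and the control group, which carried a control shRNA, labelled shNC. No further treatment was named for either group, and the sequence of the hairpin used in this line is not given in the sources used here. The labels name MDA-MB-231, whereas the design text of the series calls the RNA pericardial. Each group had 3 libraries of total RNA, and the labels do not say whether they came from separate cultures, so the errors given here measure the spread between these libraries, which may be technical. The 9 genes were taken by symbol (LAMA1, LAMA3, LAMA4, LAMA5, LAMB1, LAMB2, LAMB3, LAMC1 and LAMC3) from a table of 54259 gene symbols, and 3 further laminin subunit rows of that table are not reported here. The 9 genes were selected on the counts of these libraries, with the difference between shBry and shNC known, so their differences are given as a description, with no p-value.

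Laminins are the main adhesive proteins of the basement membrane, the thin matrix on which epithelial cells rest. Each molecule is a trimer of an alpha, a beta and a gamma chain that is assembled inside the cell and secreted. The alpha chain carries the globular domains that bind integrins and dystroglycan on the cell surface, while beta and gamma chains join with it in a coiled coil and help to knit laminins into a sheet. In epithelia, the chains of LAMA3 and LAMB3 belong to the laminin that anchors cells through hemidesmosomes, and the chain of LAMA5 pairs with those of LAMB1 or LAMB2 and LAMC1. Laminins have long been studied in breast cancer cells for their part in adhesion and migration.

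Library totals lay between 19319411 and 22985371 counts, and a gene at 0 counts could still have had up to 0.131 to 0.155 CPM, which are counts scaled to the size of the library (3 counts of the total, counting error only). Brachyury, listed under its symbol T, had 0 counts in all 6 libraries, those of shNC included. Its knockdown was thus not detectable at this depth, and the labels could not be checked on it. The paper, by contrast, describes brachyury as constitutively overexpressed in this line. Along the first principal component of log2 CPM, with 74.2% of the variance, the groups were apart. Marker genes were called by the limits given below, by which 32.4% of all 15277 tested genes were called, 17.1% higher and 15.2% lower. Of 6 marker genes of mesenchymal breast cancer cells (VIM, CD44, AXL, FN1, MSN and CAV1), all had enough counts to be tested. Their summed level was 7582 to 7926 CPM in shNC and 6585 to 6792 CPM in shBry. CAV1 alone was called, lower with a log2 fold change of -1.11. Among 6 luminal markers, ESR1 and PGR were at or near 0, and the summed level of the list was 1343 to 1459 CPM in shNC and 563 to 702 CPM in shBry. KRT8, a keratin gene, was the only 1 of the 4 tested that was called, lower with a log2 fold change of -1.90. Most of the difference in the sum was that of KRT8, with 891 ± 46.7 CPM in shNC and 239 ± 24.3 CPM in shBry. GATA3, FOXA1 and KRT18 were not called, and the median log2 fold change of the 4 tested was -0.18. Of 6 basal or myoepithelial markers, KRT5 and KRT14 were at 0 in every library and KRT17 and TP63 were too low to be tested, and the sum was 7.04 to 8.71 CPM in shNC and 6.68 to 7.32 CPM in shBry. The sums of 7 fibroblast markers (29.9 to 35.1 CPM in shNC, 31.7 to 35.4 CPM in shBry, DCN at 0) and of 4 leukocyte markers (at most 0.229 CPM, PTPRC and TYROBP at 0) overlapped between the groups. The sum of 5 endothelial markers was 19.2 to 21.9 CPM in shNC and 24.3 to 26.2 CPM in shBry. PECAM1, CDH5 and VWF were too low to be tested. KDR was the 1 gene called, lower in shBry with a log2 fold change of -1.02. Its call was lost without shNC replicate 1 (-0.84 on the log2 scale). TIE1, the other tested marker, was not called, although its edgeR adjusted p was below 0.05. The median log2 fold change of both was -0.25, which places TIE1 higher in shBry. The sum of 4 smooth muscle markers was 146 to 159 CPM in shNC and 87.6 to 102 CPM in shBry. Nearly all of it was SMTN, with 150 ± 6.21 CPM in shNC and 90.1 ± 7.55 CPM in shBry. MYH11 was too low to be tested, SMTN and DES were called lower, and CNN1 was tested and not called. DES was not called without shNC replicate 1, shNC replicate 2 or shBry replicate 3 (log2 fold changes of -0.75, -0.75 and -0.70). The part of these lists in the laminin values was not tested. In bulk RNA, fewer expressing cells and less RNA per cell cannot be told apart.

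The starts of the genes differ in the sequence that precedes them. RefSeq (GRCh38.p14) gave windows of 250 bases before a start for 7 of the 9 genes, 9 windows in all, and LAMA1 and LAMC3 were not among them. The windows were searched on both strands for the AP-1 motif TGANTCA, bound by JUN and FOS proteins, for the cyclic AMP response element TGACGTCA, for the GC box GGGCGG and for the T-box motif AGGTGTGA, of the kind that brachyury recognises. The sequences of LAMB3 and LAMA3 are shown because these genes had the highest and the lowest log2 fold change of the laminin genes tested and both hold an AP-1 match, which is in capitals. They are followed by those of LAMC1 and LAMA5, which hold GC boxes, also in capitals, and no AP-1 match. The windows of LAMB3 and LAMA3 with an AP-1 match also hold a GC box, which is not marked.
LAMB3, chr1:209651395-209651624, minus strand, the part of the window without annotated exon bases: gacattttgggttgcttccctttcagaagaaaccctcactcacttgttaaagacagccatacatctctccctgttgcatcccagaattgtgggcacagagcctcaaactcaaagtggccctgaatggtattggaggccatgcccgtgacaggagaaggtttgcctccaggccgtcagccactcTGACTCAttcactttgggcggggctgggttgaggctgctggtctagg
LAMA3, chr18:23872885-23872911, plus strand, a stretch around the first match: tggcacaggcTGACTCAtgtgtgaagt
LAMA3, chr18:23872941-23872967, plus strand, a stretch around the other match: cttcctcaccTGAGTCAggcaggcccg
LAMC1, chr1:183023170-183023419, plus strand: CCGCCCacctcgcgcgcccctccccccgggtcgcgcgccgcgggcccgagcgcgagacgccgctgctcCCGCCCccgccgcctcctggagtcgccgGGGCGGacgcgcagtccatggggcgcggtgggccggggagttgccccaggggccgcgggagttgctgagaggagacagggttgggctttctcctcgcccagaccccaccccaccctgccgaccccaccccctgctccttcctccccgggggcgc
LAMA5, chr20:62367313-62367562, minus strand: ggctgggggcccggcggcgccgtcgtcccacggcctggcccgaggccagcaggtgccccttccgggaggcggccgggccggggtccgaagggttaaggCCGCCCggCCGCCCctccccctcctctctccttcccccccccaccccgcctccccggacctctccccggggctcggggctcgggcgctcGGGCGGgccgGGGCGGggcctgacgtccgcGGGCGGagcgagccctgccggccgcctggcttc
The AP-1 match of LAMB3 began 67 bases before 1 of its 3 RefSeq starts, and the windows of the other starts held none. The 2 matches of LAMA3 began 125 and 69 bases before an internal start of the gene, and both stretches are exon in other annotated transcripts. An AP-1 match was found in 2 of the 9 windows and in 6.57% of all 35116 windows of this length. A GC box was found in 8 of the 9 windows and in 42.6% of all windows. Of these 8 windows, 3 were of LAMB3, and 2 of those overlapped and held the same box. Counted by gene, 6 of the 7 genes with a window held a GC box. There were 5 matches before LAMA5, 4 before LAMB1 and 3 before LAMC1. The bases G and C made up 48.4% (LAMA4) to 82.8% (LAMA5) of these windows, against a median of 58.0% over all windows. None of the 9 windows held the cyclic AMP response element or the T-box motif, which occurred in 1.65% and 0.786% of all windows. These matches describe letters in the windows and do not show binding.

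Of the 9 genes, 7 had enough counts to be tested. A gene was called when its fold change of shBry over shNC exceeded 1.5 in either direction with a p below 0.05 after Benjamini-Hochberg adjustment over all genes tested. Among the 7 genes, 5 met these limits, 4 higher (LAMB3, LAMB1, LAMC1 and LAMA1) and 1 lower (LAMA3), where 32.4% of all 15277 tested genes were called, 17.1% higher and 15.2% lower. In all 7 the shBry and shNC libraries were apart without overlap, as in 59.5% of all tested genes. For 6 they lay above and for 1 below, against 30.6% and 28.9% of all tested genes. The median log2 fold change was 0.86, against 0.033 for all tested genes. Since the difference was known when the genes were chosen, nothing is read from these shares. Summed over the 9 genes, the level was 1582, 1507 and 1384 CPM in shNC replicates 1, 2 and 3 and 2998, 3032 and 2965 CPM in shBry replicates 1, 2 and 3, and LAMB3 made up 25.4% ± 0.186 of the sum in shNC and 43.7% ± 1.87 in shBry (SD, n = 3).

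**Figure D1:**
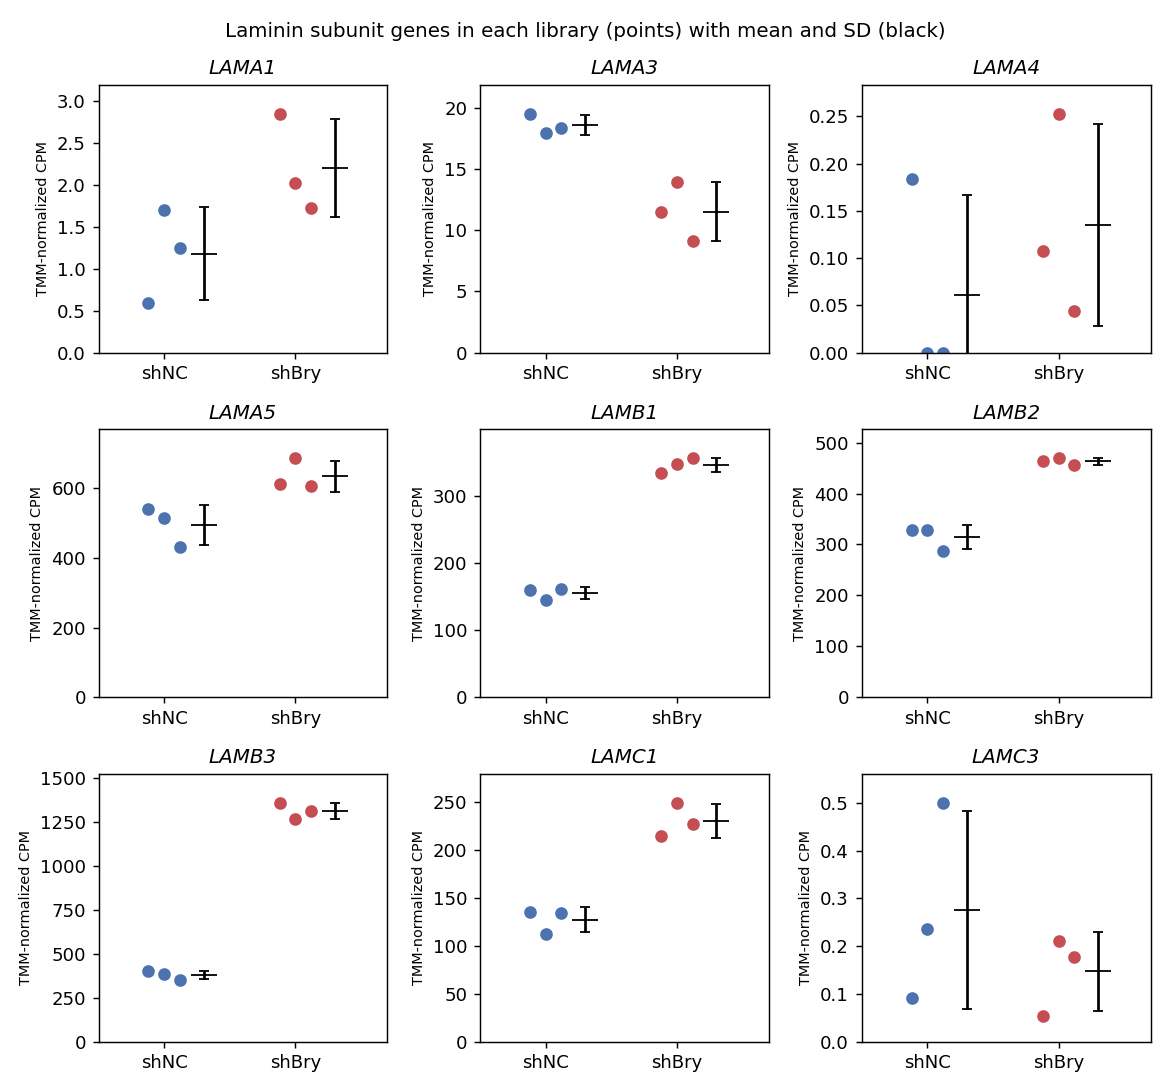
TMM-normalized CPM of each laminin gene (vertical axis, from 0, with its own scale in each panel) in the 3 shNC and 3 shBry libraries, with points for libraries and black bars for mean and SD. LAMB3 lay between 351 and 400.0 CPM in shNC and between 1264 and 1359 CPM in shBry, LAMA3 was lower in shBry, and LAMA4 and LAMC3 stayed at or below 0.501 CPM in every library.

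LAMB3 encodes the beta 3 chain and lies on the minus strand of chromosome 1 (209614870 to 209652466, GRCh38, GENCODE 29, with 5 transcripts). It had 400.0, 387 and 351 CPM in shNC replicates 1, 2 and 3 and 1359, 1264 and 1309 CPM in shBry replicates 1, 2 and 3. The lowest shBry value was thus far above the highest shNC value, and the SD within each group was small beside the gap (379 ± 25.2 and 1311 ± 47.6 CPM, n = 3). The log2 fold change was 1.79 ± 0.08 (standard error, SE), which is 3.46-fold. LAMB3 had the highest level of the 9 genes in both groups on this scale except for LAMA5 in shNC, and its log2 fold change stayed between 1.71 and 1.82 whichever library was left out.
LAMB1, on chromosome 7 from 107923799 to 108003255 on the minus strand, encodes the beta 1 chain, which is found in laminins of most tissues. It had 159, 145 and 161 CPM in shNC and 334, 347 and 356 CPM in shBry. The groups did not overlap, and the log2 fold change was 1.15 ± 0.08 (SE), or 2.23-fold. Genes on the opposite strand, DLD among them, cover 3.57% of its exon bases, and whether reads were counted by strand is not given in the sources used here.
LAMB2, on chromosome 3 from 49121114 to 49133118 on the minus strand, encodes the beta 2 chain, known from the kidney glomerulus and the neuromuscular junction. It had 328, 328 and 287 CPM in shNC and 464, 470 and 456 CPM in shBry. The groups did not overlap here either, but the log2 fold change of 0.56 ± 0.08 (SE) lay just under the fold change limit, which is 0.58 on this scale. Without shNC replicate 1 it was 0.59 and LAMB2 met both limits. The 3 beta chain genes therefore all had higher values in every shBry library, with LAMB3 furthest from its shNC level and LAMB2 nearest.

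LAMA5, on chromosome 20 from 62307955 to 62367312 on the minus strand, encodes the alpha 5 chain, the alpha chain of most adult epithelial basement membranes. It had 539, 516 and 430 CPM in shNC and 611, 687 and 606 CPM in shBry. The values did not overlap, but the gap between the groups was of the order of the spread within them, with a log2 fold change of 0.36 ± 0.09 (SE) that stayed under the fold change limit in all 12 other fits. ADRM1, the antisense gene LAMA5-AS1 and a microRNA gene cover 2.54% of its exon bases.
LAMA3, on chromosome 18 from 23689443 to 23956222 on the plus strand, encodes the alpha 3 chain in a long and a short form, which counts per gene cannot separate. It had 19.5, 18.0 and 18.4 CPM in shNC and 11.5, 13.95 and 9.09 CPM in shBry. All 3 shBry values lay below the shNC values, and they were spread more widely, with a coefficient of variation of 21.1% against 4.32%. The log2 fold change was -0.69 ± 0.15 (SE). LAMA3 met the limits through shBry replicate 3, since without it the log2 fold change was -0.54 and the fold change limit was not reached. No stretch of 50 bases in LAMA3, LAMB2, LAMB3 or LAMC1 transcripts occurs in a transcript of another gene.
LAMA1, on chromosome 18 from 6941744 to 7117814 on the minus strand, encodes the alpha 1 chain of embryonic basement membranes. It had 13, 36 and 25 counts in shNC and 53, 48 and 39 counts in shBry, or 0.596, 1.702 and 1.25 CPM against 2.85, 2.02 and 1.73 CPM. The values did not overlap, but the highest shNC and the lowest shBry value nearly touched, and the log2 fold change of 0.89 had an SE of 0.35. Pooled over the libraries of a group, the level was 1.18 CPM in shNC (95% exact Poisson interval 0.923 to 1.48) and 2.16 CPM in shBry (1.82 to 2.55), where the intervals cover counting error only. LAMA1 no longer met the limits in 6 of 12 other fits, among them those without shNC replicate 1, shNC replicate 3 or shBry replicate 1, with log2 fold changes of 0.55, 0.91 and 0.67. The genes AP002409.1 and AP005062.1 on the opposite strand cover 11.05% of its exon bases. Stretches of 50 bases shared on either strand with transcripts of other genes, these included, made up 10.6% of its sequence, so its few counts are uncertain.
LAMA4, on chromosome 6 from 112108760 to 112254939, encodes the alpha 4 chain of vessels and muscle. It had 4, 0 and 0 counts in shNC and 2, 6 and 1 counts in shBry, and a difference was not detectable at this depth.

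LAMC1, on chromosome 1 from 183023460 to 183145592 on the plus strand, encodes the gamma 1 chain, which most laminins contain. It had 135, 112 and 134 CPM in shNC and 214, 248.9 and 227 CPM in shBry. The groups did not overlap, and the log2 fold change was 0.86 ± 0.09 (SE), or 1.81-fold, and it ranged from 0.75 to 0.90 over the fits that left out 1 library. LAMC3, on chromosome 9 from 131009082 to 131094473, encodes the gamma 3 chain. It had 2, 5 and 10 counts in shNC and 1, 5 and 4 counts in shBry, values that overlapped. LAMA4 and LAMC3 were removed by the expression filter before the test.

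To compare the genes with each other, CPM were divided by the length of the union of annotated exons in kilobases. In shNC the order of these levels was LAMB3 (80.9 ± 5.38 CPM per kilobase, SD, n = 3), LAMB2 (45.8 ± 3.45), LAMA5 (34.6 ± 4.01), LAMB1 (19.1 ± 1.07), LAMC1 (15.1 ± 1.58), LAMA3 (1.27 ± 0.0548) and LAMA1 (0.0746 ± 0.0351). Neighbours in this order did not overlap over the 3 shNC libraries down to LAMA3 and LAMA1, whereas LAMA1, LAMC3 and LAMA4 at the bottom overlapped with the next. The order was the same in shBry, with LAMB3 at 280 ± 10.2 CPM per kilobase, LAMB2 at 67.5 ± 0.968, LAMA5 at 44.4 ± 3.16, LAMB1 at 42.5 ± 1.33, LAMC1 at 27.3 ± 2.11, LAMA3 at 0.785 ± 0.166 and LAMA1 at 0.139 ± 0.0367. There LAMA5 and LAMB1 overlapped and cannot be ordered.

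**Figure D2:**
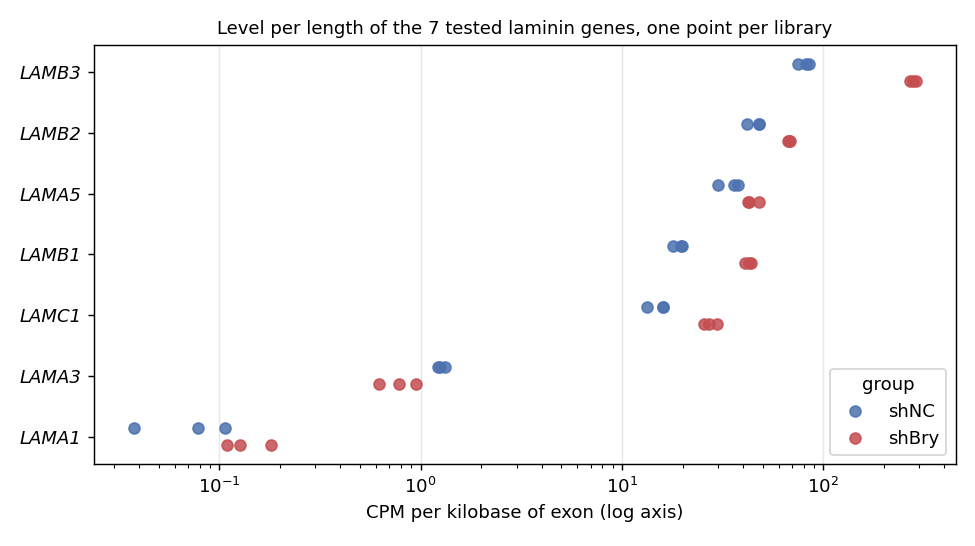
Level per length of the 7 tested laminin genes in CPM per kilobase of exon (horizontal log axis), with a point for each library and colour for the group. Mean LAMB3 levels were 80.9 in shNC and 280 in shBry, while the mean LAMA3 level was 1.27 in shNC and 0.785 in shBry.

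Among the 3 beta chain genes, LAMB3 took 55.5% ± 0.532 of the summed level per length in shNC and 71.8% ± 0.948 in shBry. The share of LAMB2 was 31.4% ± 0.836 in shNC and 17.3% ± 0.554 in shBry, and that of LAMB1 was 13.1% ± 1.25 and 10.9% ± 0.522. The shares did not overlap between groups for any of the 3 genes, so that LAMB1 and LAMB2 were higher in CPM but held smaller shares of the beta chain transcripts. Among the 4 alpha chain genes listed, LAMA5 made up 96.2% ± 0.397 in shNC and 98.0% ± 0.308 in shBry, and LAMA3 made up 3.55% ± 0.380 and 1.72% ± 0.257.
LAMB3 and LAMA3, whose chains meet in the same trimer, moved apart. The level per length of LAMB3 was 64.2, 67.4 and 59.8 times that of LAMA3 in shNC replicates 1, 2 and 3, and 369, 284 and 451 times in shBry replicates 1, 2 and 3. The ratio rested on the low and variable LAMA3 level in shBry, and the lowest shBry ratio was still above all shNC ratios. The short form of LAMA3 is shorter than the lengths used here, the exon union of 14678 bases or the longest transcript. Where that form was expressed, the LAMA3 level and share are too low and the ratio is too high. Which form was expressed was not tested. By contrast, LAMA5, LAMB1, LAMB2 and LAMC1 stayed within a narrower range of each other. The ratio of LAMA5 to LAMC1 was 2.32 ± 0.417 in shNC and 1.63 ± 0.0567 in shBry. The ratio of LAMB1 to LAMC1 was 1.27 ± 0.0667 and 1.56 ± 0.103, and that of LAMB2 to LAMC1 was 3.06 ± 0.497 and 2.48 ± 0.175, the latter with overlapping values.

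**Figure D3:**
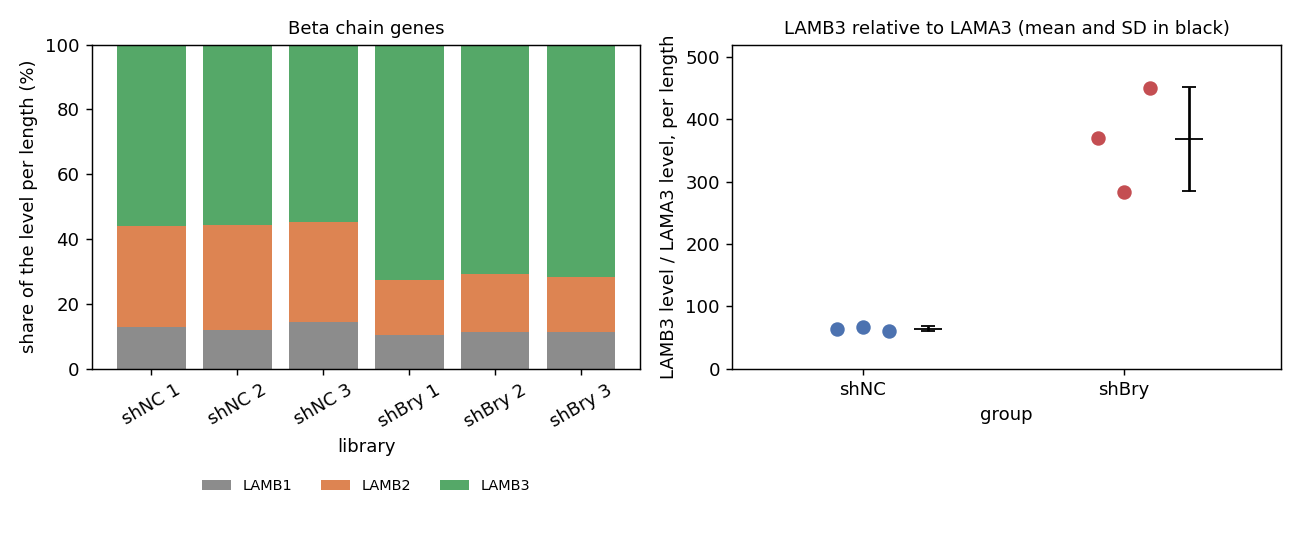
Left, stacked bars of the share of LAMB1, LAMB2 and LAMB3 in their summed level per length (%, from 0 to 100) in each library. Right, the ratio of the LAMB3 to the LAMA3 level per length (axis from 0) by group, with points for libraries and black bars for mean and SD. The LAMB3 share was 55.5% in shNC and 71.8% in shBry on average, and the ratio was 63.8 ± 3.79 and 368 ± 83.7.

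Genes whose profile over the 6 libraries was nearest to that of LAMB3 and of LAMA3 were sought among 9412 other tested genes whose mean reached 10 CPM, by the Euclidean distance between centred log2 CPM. Nearest to LAMB3 were JAG1, a Notch ligand gene (distance 0.0952), L1CAM, a cell adhesion gene (0.121), and GTPBP2 (0.131), where the median distance over all genes was 2.19. JAG1 had 10.5 ± 0.521 CPM in shNC and 37.0 ± 0.164 CPM in shBry, L1CAM had 21.3 ± 1.53 and 75.1 ± 2.35 CPM, and GTPBP2 had 84.9 ± 3.09 and 278 ± 15.2 CPM. Nearest to LAMA3 were PYROXD2 (0.176), DOCK9 (0.214) and GLI3, a Hedgehog pathway transcription factor gene (0.244), with a median distance of 1.08. DOCK9 had 25.6 ± 2.14 CPM in shNC and 16.3 ± 2.36 CPM in shBry, and GLI3 had 32.8 ± 1.56 and 20.2 ± 2.89 CPM. The likeness is over 6 libraries in 2 groups, so it is mainly a likeness of the level difference between the groups.

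Receptors, matrix partners and proteases of laminin were examined with lists written from general knowledge but with earlier results of these data known, so that their counts are descriptions and their p-values are no independent evidence. Their genes were tested in the same fit of edgeR's quasi-likelihood test over all genes with Benjamini-Hochberg adjustment. Of 19 laminin receptor genes, 18 were tested and 6 were called (33.3%, against 32.4% of all tested genes), 3 higher and 3 lower (17.1% and 15.2% of all tested genes), with a median log2 fold change of 0.00. ITGA3, the integrin alpha 3 gene whose product binds the laminins of LAMA3 and LAMA5, rose from 1124 ± 78.6 CPM in shNC to 1854 ± 58.7 CPM in shBry (log2 fold change 0.72 ± 0.08 SE, edgeR adjusted p = 3.7e-06). Its partner gene ITGB1 had a log2 fold change of 0.29, under the fold change limit. ITGA6, the other epithelial laminin integrin alpha gene, had 112, 115 and 147 CPM in shNC and 157, 198 and 167 CPM in shBry, and its log2 fold change of 0.48 was also under the limit, though it was 0.59 and met both limits without shNC replicate 3. ITGB4, the integrin beta gene of hemidesmosomes, had 63.9 ± 7.54 and 72.2 ± 5.76 CPM with overlapping values.
SDC4, a syndecan gene, rose by 1.01 ± 0.08 (SE) on the log2 scale (edgeR adjusted p = 1.8e-07). ITGAV rose by 0.72 ± 0.15 (SE) on that scale (edgeR adjusted p = 0.0011), but by 0.48 without shBry replicate 2, which was under the limit. DAG1, which encodes dystroglycan, fell from 349 ± 24.3 CPM in shNC to 198 ± 6.37 CPM in shBry (log2 fold change -0.82 ± 0.08 SE, edgeR adjusted p = 1.2e-06). SDC2 and ITGA7, an integrin alpha gene of muscle, fell with log2 fold changes of -1.18 and -1.33 (edgeR adjusted p = 0.00028 and 3.8e-05) from means of 10.01 and 9.29 CPM. BCAM, a receptor gene for the alpha 5 chain, and MCAM, which binds laminins of vessels, had log2 fold changes of -0.30 and 0.53 and were not called. ITGB3, named after its values were seen, was not called either, with a log2 fold change of -0.52. It was called lower without shBry replicate 2 (-0.66) or shBry replicate 3 (-0.59).

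Of 20 genes of other basement membrane components, 15 were tested and 9 were called (60.0%, against 32.4% of all tested genes), 6 higher and 3 lower (17.1% and 15.2% of all tested genes), with a median log2 fold change of 0.26. Both chains of the common type IV collagen network rose. COL4A1 rose from 79.6 ± 6.47 CPM in shNC to 185 ± 3.98 CPM in shBry (log2 fold change 1.22 ± 0.08 SE, edgeR adjusted p = 3.5e-08), and COL4A2 from 333 ± 30.3 to 641 ± 18.5 CPM (0.94, edgeR adjusted p = 4.4e-07). The peroxidase gene PXDN, whose product crosslinks type IV collagen, rose with a log2 fold change of 0.91, and AGRN, the gene of the heparan sulfate proteoglycan agrin that binds laminin, rose with 0.82 (edgeR adjusted p = 1.1e-06 and 2.3e-06). TINAGL1 rose with 1.14, and COL7A1, the gene of the anchoring fibril collagen, rose from 6.51 ± 0.941 to 12.5 ± 1.33 CPM with 0.94 (edgeR adjusted p = 1.4e-07 and 0.00018). HSPG2, the perlecan gene, had 191 ± 24.1 and 212 ± 33.0 CPM with overlapping values, and a gene on the opposite strand covers 11.7% of its exon bases. COL4A5 and FBLN1 fell, with log2 fold changes of -0.81 and -1.29 (edgeR adjusted p = 0.00025 and 0.0012), and COL4A6, named after its values were seen, was called lower from 0.824 and 0.381 CPM (log2 fold change -1.13 ± 0.44 SE). Its call was lost in 7 other fits with log2 fold changes of -1.26 to -0.85, among them DESeq2 and those without shNC replicate 1, shNC replicate 2, shBry replicate 2 or shBry replicate 3. NID1, the gene of nidogen 1, which links laminin to type IV collagen, was at 0 counts in all 6 libraries, and NID2 was too low to be tested.

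**Figure D4:**
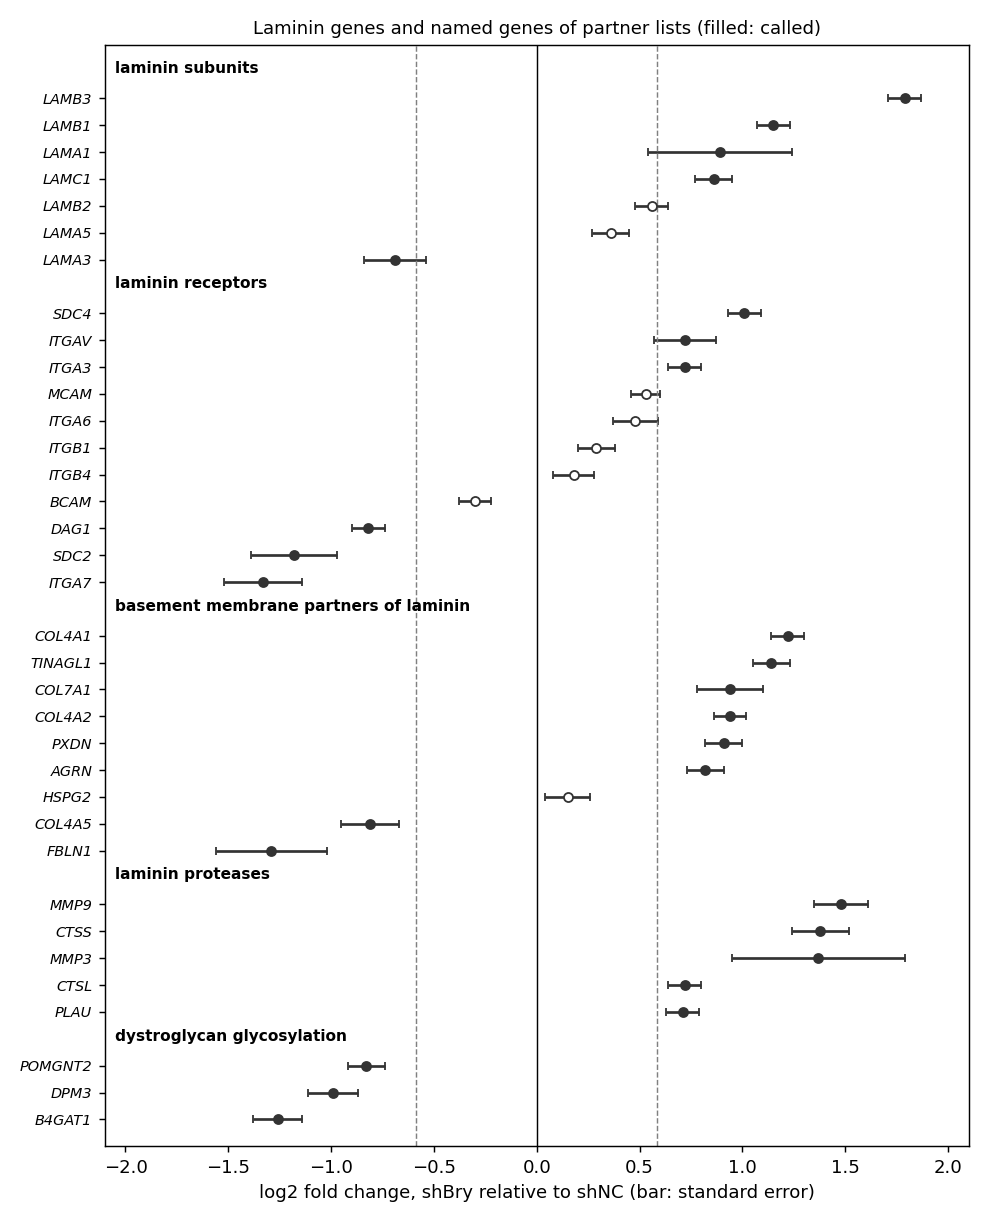
Log2 fold change of shBry relative to shNC (horizontal axis, bars for the standard error) of the 7 tested laminin genes and of the named genes in each list, with filled points for genes called and dashed lines at the fold change limit. LAMB3 had a value of 1.79 and LAMA3 of -0.69, and the receptor genes ranged from 1.01 for SDC4 to -1.33 for ITGA7. ITGB3, COL4A6 and DST are not shown.

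Of 6 hemidesmosome genes, which include ITGA6 and ITGB4, none was called by edgeR's quasi-likelihood test, by DESeq2 or by limma-voom. Over all tested genes, edgeR called 32.4%. In edgeR, 4 of the 6 had an unadjusted p below 0.05 and an adjusted p below 0.05. An edgeR adjusted p below 0.05 was also found for 8139 of all 15277 tested genes, so nothing is read from these counts. Of 14 genes of proteases that cut laminin or its surroundings, 9 were tested and 5 were called, all higher (17.1% of all tested genes were called higher), of which 4 were left in 3 of the fits without 1 library. MMP9, a gelatinase gene, rose from 9.86 ± 1.19 CPM in shNC to 27.5 ± 0.510 CPM in shBry (log2 fold change 1.48 ± 0.13 SE, edgeR adjusted p = 3.1e-07), with 18.4% of its exon bases covered by an antisense gene. PLAU, the urokinase gene, rose from 758 ± 29.9 CPM in shNC to 1242 ± 73.5 CPM in shBry (log2 fold change 0.71 ± 0.08 SE, edgeR adjusted p = 3.7e-06), with 31.1% of its exon bases covered by a gene on the opposite strand. The cathepsin genes CTSL and CTSS rose with log2 fold changes of 0.72 and 1.38 (edgeR adjusted p = 5.8e-06 and 1.6e-06). MMP3 was called from at most 1.55 CPM, and its call was lost without shNC replicate 2, shNC replicate 3 or shBry replicate 3, with log2 fold changes of 1.11, 1.20 and 1.08.
Dystroglycan binds laminin through a sugar chain, and of 17 genes for its synthesis 15 were tested and 4 were called (26.7%, against 32.4% of all tested genes), 1 higher and 3 lower, with a median log2 fold change of 0.11. POMGNT2, B4GAT1 and DPM3 fell, with log2 fold changes of -0.83, -1.26 and -0.99 (edgeR adjusted p = 4.1e-06, 9.5e-07 and 8.6e-06).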

How the data were processed

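RNA of MDA-MB-231 shBry cells and shNC cells was sequenced in 3 libraries each. The authors deposited raw counts, whole numbers of reads per gene symbol and library without normalization. The submitters' processing notes name HISAT2 2.0.4, HTSeq and GRCh38. The annotation and strand setting are not given in the sources used here. Library totals lay between 19319411 and 22985371 counts.

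Low genes were removed from the deposited counts with filterByExpr at a minimum count of 10, and libraries were scaled with TMM. The quasi-likelihood test of edgeR 4.0.16 (R 4.3.3) was then applied to the 15277 genes left, with the group as the only term. The study's fold change limit of 1.5 was used with a Benjamini-Hochberg adjusted p below 0.05. CPM are TMM-normalized, and standard errors are the log2 fold change divided by the square root of F. Gene models came from GENCODE 29 (GRCh38), matched by symbol. The submitters' notes name the same genome build.

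The laminin genes and the lists were chosen with earlier results of these data known. Named from each list were up to 8 called genes with the smallest adjusted p and fixed partners of laminin. Results of some single genes under this rule are left out here. The nearest profiles were sought for the laminin genes with the highest and lowest log2 fold change. Alternatives were no TMM, DESeq2 1.42.0, limma-voom (limma 3.58.1), other filters, other fold change limits, fits without 1 library each, the replicate number as a block and, for levels per length, the longest transcript. Only the fitting functions were tested on simulated counts, with changes well above the fold change limit, so that test does not cover calls near the limit.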

Additional observations from a re-analysis of the deposited data

How the results depend on the processing

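All 7 log2 fold changes of laminin genes kept their sign under every alternative run, and LAMB3, LAMB1 and LAMC1 met the limits in each of 12 other fits. With a fold change limit of 2, the genes called numbered 2297 over all genes, 2 of the laminin genes, 3 of the receptors, 4 of the basement membrane genes, 3 of the proteases and 2 of the dystroglycan glycosylation genes. Without a fold change limit, they numbered 8139 over all genes, 7 of the laminin genes, 12 of the receptors, 4 of the hemidesmosome genes and 8 of the proteases. Over the fits without 1 library, 4 to 5 laminin genes and 0 to 1 hemidesmosome genes were called, the latter ITGA6 without shNC replicate 3 and DST without shBry replicate 2. The laminin count was 4 without TMM and with DESeq2, where LAMA1 was lost.

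With the longest transcript as length, LAMB3 made up 51.7% of the beta chain level in shNC and 68.2% in shBry, the ratio of LAMB3 to LAMA3 was 50.45 in shNC and 291 in shBry, and LAMB1 and LAMA5 changed places in shBry. With the replicate number as a block, 4 laminin genes and 4914 genes in all were called, LAMA1 being lost. The labels give no meaning to the number. Deviations of same-numbered libraries from their group means correlated with 0.159, -0.0663 and -0.0181, and those of other pairs with -0.19 to 0.192. With 3 libraries per group, these values cannot show whether same-numbered libraries shared a culture or a batch. Depth limits LAMA4, LAMC3 and LAMA1.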
